A study of Homo sapiens with 96 samples.

Results

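TGFB1, TGFB2 and TGFB3 (the TGF-beta ligands), INHBA (the chain of activin A), BMP4 (a bone morphogenetic protein) and the receptors TGFBR1, TGFBR2 and TGFBR3 were followed across 96 Affymetrix arrays of the human breast cancer line MDA-MB-231. The members were chosen by gene symbol. They had 13 probe sets, 10 for ligands and 3 for receptors, among 22406 tested, and they are 8 of 11940 genes with a probe set. Each array held the RNA of a whole culture, so fewer cells with a transcript and less transcript per cell cannot be told apart.

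Cells at 80% confluence were held in low serum for 24 h in every arm. The arms were U0126 with EGF (10 uM U0126, an inhibitor of MEK, the kinase that activates ERK, with EGF at 10 ng/ml), DMSO-EGF (the vehicle with EGF), EGF alone and an untreated control. U0126 or DMSO was given 30 min before EGF, and arrays were taken at 0, 0.5, 1, 4, 8, 12, 24 and 48 h. Series 3D04 came from 3D culture and series 2D03 and 2D04 from 2D culture, with 32 arrays each. After 0 h each series had 1 array per arm and time, so every 2D arm and time had 2 arrays. At 0 h each series had 1 U0126, 1 DMSO and 2 control arrays. No inhibitor other than U0126 was used, so loss of MEK activity cannot be told apart from anything else U0126 does. All cells were of 1 line, and 3D culture was 1 series, so culture and series cannot be told apart either. The labels do not say whether repeats were separate cultures, so p-values measure the spread between these arrays, which may be technical. In 3D neighbouring times served as repeats. The p-values of 3D therefore measure how arms vary between times, not between repeat cultures.

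TGF-beta ligands are secreted in a latent form and act through a complex of the type II receptor TGFBR2, which binds ligand, and the type I receptor TGFBR1, which phosphorylates SMAD2 and SMAD3. TGFBR3, also called betaglycan, is a co-receptor that presents ligand, TGFB2 above all, to TGFBR2. Activin and BMP4 use other type I and type II receptors of the family, BMP4 signalling through SMAD1, SMAD5 and SMAD9, and inhibitory SMADs restrain both branches. In breast cancer cells TGF-beta is known for both growth arrest and invasion.

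The genes with the largest U0126 differences in 3D culture were TGFB2, BMP4, TGFBR3 and TGFBR2, and the promoters of these members are shown. Each window runs from 250 bases before to 50 after a RefSeq gene start (GRCh38.p14), 5′ to 3′ on the gene's strand, with motif matches in capitals. They are TGFB2 at chr1:218345086-218345385 on the plus strand, BMP4 at chr14:53955001-53955300 on the minus strand (the most upstream of 3 listed starts), TGFBR3 at chr1:91886102-91886401 on the minus strand and TGFBR2 at chr3:30606351-30606650 on the plus strand (the second of 2 starts).
TGFB2: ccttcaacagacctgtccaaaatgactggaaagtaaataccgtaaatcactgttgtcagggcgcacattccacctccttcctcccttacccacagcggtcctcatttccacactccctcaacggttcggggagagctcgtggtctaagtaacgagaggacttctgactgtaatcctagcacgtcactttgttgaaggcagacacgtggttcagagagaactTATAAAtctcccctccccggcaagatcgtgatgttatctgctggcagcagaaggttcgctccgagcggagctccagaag
BMP4: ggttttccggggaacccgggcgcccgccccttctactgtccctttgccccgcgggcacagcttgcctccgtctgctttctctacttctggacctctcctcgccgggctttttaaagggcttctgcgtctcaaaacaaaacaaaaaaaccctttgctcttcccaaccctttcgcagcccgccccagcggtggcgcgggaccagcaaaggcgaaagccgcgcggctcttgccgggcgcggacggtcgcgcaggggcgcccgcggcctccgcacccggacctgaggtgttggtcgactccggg
TGFBR3: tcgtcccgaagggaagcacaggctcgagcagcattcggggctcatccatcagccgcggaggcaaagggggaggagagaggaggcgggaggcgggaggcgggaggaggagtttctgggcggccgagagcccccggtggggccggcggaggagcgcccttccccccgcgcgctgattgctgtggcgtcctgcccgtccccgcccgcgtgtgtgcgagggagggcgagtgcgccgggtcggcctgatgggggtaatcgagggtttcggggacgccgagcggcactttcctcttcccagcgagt
TGFBR2: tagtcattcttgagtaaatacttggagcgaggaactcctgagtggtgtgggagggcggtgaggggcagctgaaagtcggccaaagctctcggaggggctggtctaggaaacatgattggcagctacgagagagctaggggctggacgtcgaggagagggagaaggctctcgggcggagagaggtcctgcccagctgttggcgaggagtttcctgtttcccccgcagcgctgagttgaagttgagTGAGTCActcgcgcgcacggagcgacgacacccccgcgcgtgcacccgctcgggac
In TGFB2 the capitals mark a TATA motif (TATAAA) that begins at base -29, and in TGFBR2 an AP-1 motif (TGANTCA) that begins at base -6. AP-1 is a dimer of FOS and JUN proteins. Of 35116 RefSeq promoters of this length, 11.5% held TATAAA and 7.71% held TGANTCA on either strand. Neither BMP4 nor TGFBR3 had a match in the windows shown to these or to the CRE (TGACGTCA, in 1.85% of promoters), ETS (CCGGAAGT, 4.14%) or SMAD (GTCTAGAC, 0.202%) motifs. The first of the 2 TGFBR2 windows, which is not shown, held no match to any of the motifs. Among the other members, TATAAA stood in INHBA and in 1 of the 2 TGFB3 windows. The motifs do not overlap. A match describes these letters only.

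The deposited values are presumed log2 signals, each probe set being shifted against an unknown reference. Levels can therefore be compared between arrays but not between genes, and the cell line could not be checked through marker levels. Array medians lay between -0.06 and 0.03. Times were averaged in 3 windows, called early for 0.5 and 1 h, middle for 4, 8 and 12 h and late for 24 and 48 h. Differences were tested with limma, with Benjamini-Hochberg adjustment over all 22406 probe sets and a threshold of 0.05. Called means past that threshold. ERK output fell in U0126 arrays of the late window. DUSP6, an ERK phosphatase, stood at -2.40 in 3D and -2.60 in 2D, and EGR1, an immediate early gene, at -4.27 in 3D and -3.31 in 2D. SPRY4, a feedback inhibitor, stood at -2.235 and -2.76. In the early window EGR1, DUSP6 and SPRY4 were all called lower in 3D (-2.265, -2.89 and -1.77). In early 2D EGR1 was called (-1.615), but DUSP6 (-0.755) and SPRY4 (-0.62) were not. The difference between the 5′ and 3′ actin probe sets, a measure of RNA integrity, was -1.26 and -1.08 (log2) on the U0126 arrays of 8 and 12 h of series 2D03. The next lowest were -0.36 on control repeat 2 and on DMSO, both at 0 h of series 2D04, and the highest was 0.31. The lowest of 3D were the U0126 arrays of the late window, at -0.09 (24 h) and -0.14 (48 h). The DMSO-EGF arrays of these times had 0.02 and 0.03. Results without the U0126 pair of series 2D03 are given below, and the part of RNA integrity in the member values, also in late 3D, was not tested otherwise.

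TGFB2 RNA was higher with U0126 in 3D culture from 4 h on. On probe set 209908_s_at (chr1:218345336-218444619 is the gene) the values in 3D were 0.96, 0.85 and 1.14 at 4, 8 and 12 h with U0126, against 0.20, 0.04 and -0.19 with DMSO-EGF. At 24 and 48 h they were 1.08 and 1.88 with U0126, against -0.33 and -0.07 with DMSO-EGF. Every U0126 array from 4 h on was above every DMSO-EGF array. The difference was 0.97 in the middle window (SE 0.11, adjusted p = 8.1e-06, n = 3 arrays per arm, 1 per time). It was 1.68 in the late window (SE 0.14, adjusted p = 1.5e-08, n = 2 per arm, 1 per time), a 3.20-fold higher signal. Before 4 h the arms were together, at 0.51 and 0.26 with U0126 and 0.39 and 0.29 with DMSO-EGF at 0.5 and 1 h.

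The rise of TGFB2 was seen on 3 of its 4 probe sets. In the late 3D window 209909_s_at was 2.98-fold higher (log2 1.575, SE 0.11, adjusted p = 9.6e-10) and 220407_s_at 2.87-fold higher (log2 1.52, SE 0.10, adjusted p = 4.5e-10). In the middle window they stood at 0.96 and 0.91. Their differences over the 21 combinations of series and time correlated between them and with 209908_s_at at Pearson r of 0.923 to 0.978, the points sharing 3 series. The remaining probe set, 220406_at, was at 0.24 in the late window (adjusted p = 0.14) and varied little over all 96 arrays, its SD standing at percentile 9.22 of all probe sets.

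BMP4 rose with TGFB2 in 3D. Its probe set 211518_s_at (gene at chr14:53949736-53956891) had 0.70, 1.18, 1.45, 1.54 and 1.38 with U0126 at 4, 8, 12, 24 and 48 h, against 0.46, 0.33, 0.57, 0.31 and 0.19 with DMSO-EGF. Again no U0126 array overlapped a DMSO-EGF array. The difference was 0.66 in the middle window (SE 0.10, adjusted p = 0.00016) and 1.21 in the late window (SE 0.12, adjusted p = 2.2e-07), or 2.31-fold. At 0.5 and 1 h BMP4 was at -0.07 and -0.17 with U0126 against 0.18 and 0.18 with DMSO-EGF, so the arms did not overlap there either, but the difference did not pass the test (difference -0.30, SE 0.12, adjusted p = 0.89).

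The other ligands changed less. TGFB1 (chr19:41330323-41353922) has a pair of probe sets that correlated with each other at r = 0.256 over the 21 differences. In the late 3D window 203085_s_at stood at -0.295 (SE 0.17, adjusted p = 0.22) and 203084_at at 0.27 (SE 0.13, adjusted p = 0.11), so neither was called. The first of them was level at 24 h, with 2.34 in each arm, and lower at 48 h, with 1.51 under U0126 and 2.10 under DMSO-EGF. TGFB3 (chr14:75958097-75983011) stood at 0.00 in the middle and 0.18 in the late window with an SE of 0.22 in the late one. INHBA (chr7:41685114-41705406) was called on 210511_s_at in the late window with a small difference, 0.19 and 0.23 with U0126 against -0.03 and 0.03 with DMSO-EGF at 24 and 48 h (0.21, SE 0.07, adjusted p = 0.018). That call was lost after quantile normalization (adjusted p = 0.125). It was also lost without either time (adjusted p from 0.10 to 0.13), a fit that leaves 1 array per arm and assumes it to vary like the other groups. Its other probe set, 204926_at, was at -0.08 (adjusted p = 0.66) and varied little.

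The co-receptor TGFBR3 rose and the ligand-binding TGFBR2 fell in 3D. TGFBR3 (204731_at, gene at chr1:91680343-91906002) had 1.91, 1.82, 1.80, 2.13 and 2.08 with U0126 from 4 to 48 h, against 1.36, 1.28, 1.34, 1.44 and 1.19 with DMSO-EGF. It rose by 0.52 in the middle window (SE 0.08, adjusted p = 0.00011) and by 0.79 in the late window (SE 0.09, adjusted p = 1.5e-06), or 1.73-fold. TGFBR2 (207334_s_at, gene at chr3:30606356-30694142) had 0.29, 0.26, 0.80, 0.82 and 1.03 with U0126 at the same times, against 0.97, 0.82, 1.26, 1.55 and 1.63 with DMSO-EGF. It fell by 0.57 in the middle window (SE 0.11, adjusted p = 0.0016) and by 0.67 in the late window (SE 0.14, adjusted p = 0.00060), or 1.59-fold. At each time the U0126 array was below its DMSO-EGF array, and within each window the arms did not overlap. TGFBR1 (206943_at, gene at chr9:99103647-99154192), the signalling partner, was at -0.29 in the middle window (SE 0.13, adjusted p = 0.17) and -0.04 in the late one (SE 0.16), not called in either.

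In all, 5 member probe sets rose and 1 fell in the middle 3D window, where 13.1% of all probe sets were called (6.02% higher and 7.12% lower). In the late window 6 rose and 1 fell, where 35.2% were called (18.9% higher and 16.3% lower). In the early window 0 of 13 were called, against 0.295% of all probe sets, and 1 had an unadjusted p under 0.05. The median over the 13 was 0.24 in the late window, against 0.03 over all probe sets. The 6 calls of the middle window held without any 1 time. They share arrays and 3 of them are 1 gene, so they are not independent of each other.

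**Figure D1:**
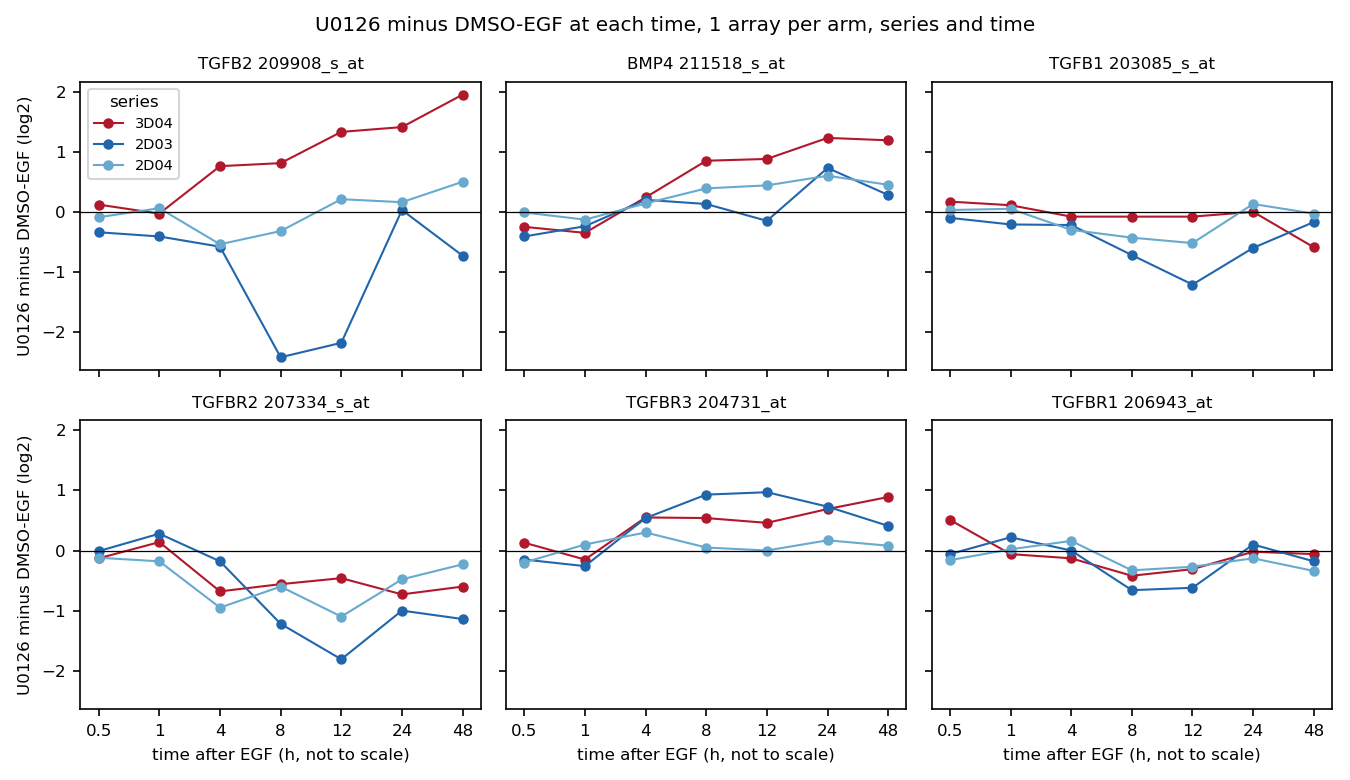
U0126 minus DMSO-EGF (log2, vertical) at each time (h, horizontal, not to scale) for 6 probe sets, 1 point per series and time. TGFB2 reaches 1.95 at 48 h in series 3D04, TGFBR2 is below 0 in all 3 series from 4 h, and series 2D03 dips to -2.42 for TGFB2 at 8 h, on 1 of the arrays with low 5′ actin signal.

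In 2D culture fewer members were called than in 3D by the fit without the series as a block. That fit leaves the difference between the 2D series in its spread, whereas 3D had only 1 series. With the block more members passed in the middle and late 2D windows, so the counts of the cultures cannot be compared directly. In the middle window TGFBR2 kept its call without any 1 of the 12 arrays. Its values with U0126 at 4, 8, 12, 24 and 48 h were 0.61, -0.31, -0.46, 0.14 and -0.34 in series 2D03, against 0.79, 0.91, 1.35, 1.14 and 0.80 with DMSO-EGF. In series 2D04 they were -0.20, -0.06, 0.03, 0.32 and 0.34 with U0126, against 0.75, 0.54, 1.13, 0.80 and 0.57 with DMSO-EGF. All 10 U0126 arrays were thus below their DMSO-EGF partners. TGFBR2 fell by 0.98 in the middle window (SE 0.21, adjusted p = 0.0022, n = 6 arrays per arm), or 1.97-fold, and stood at -0.71 in the late window (SE 0.26, adjusted p = 0.074, n = 4 per arm), a difference that passed with the series as a block (adjusted p = 0.0099). Without the U0126 arrays of low 5′ actin signal the middle difference was -0.85 (adjusted p = 0.055), or -0.73 with the block as well (adjusted p = 0.0087). Series 2D04 alone, which lacks those arrays, gave -0.88 (SE 0.11, adjusted p = 3.0e-05).

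TGFB2 was not called higher in 2D. With U0126 209908_s_at had 0.71, -1.14, -1.31, 1.55 and 0.60 in series 2D03 from 4 to 48 h, against 1.29, 1.28, 0.87, 1.52 and 1.33 with DMSO-EGF. In series 2D04 it had 0.82, 1.13, 1.32, 1.28 and 1.5 with U0126, against 1.36, 1.45, 1.11, 1.12 and 1.00 with DMSO-EGF. U0126 was below DMSO-EGF at 4, 8, 12 and 48 h in series 2D03 and at 4 and 8 h in series 2D04. It was above DMSO-EGF at the other times from 4 h on. The 5′ minus 3′ actin difference was 0.20 and 0.09 on the U0126 arrays of 4 and 48 h of series 2D03. On those of 4 and 8 h of series 2D04 it was -0.02 and 0.05. The lowest values were those of 8 and 12 h in series 2D03. The middle window was called lower (-0.97, SE 0.29, adjusted p = 0.038), and without those arrays the difference was -0.155 (adjusted p = 0.93). Leaving out 1 of the 12 arrays ended the call (-1.41 to -0.53), except for U0126 at 8 or 12 h of series 2D04, as did quantile normalization (adjusted p = 0.11). The late window stood at -0.01 (SE 0.36, adjusted p = 0.99). That mean joins series that went opposite ways at 48 h. U0126 read 0.60 against 1.33 with DMSO-EGF in series 2D03, and 1.5 against 1.00 in series 2D04. In series 2D04 alone 220407_s_at was higher in the late window (0.46, adjusted p = 0.049), whereas both series together gave 0.08.

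The 4 arrays of lowest 5′ actin signal were also the lowest of 2D culture for this probe set. They read -1.14 and -1.31 (the U0126 pair of series 2D03), -0.14 (control repeat 2 at 0 h) and -0.26 (DMSO at 0 h), and the other 60 arrays of 2D lay between 0.60 and 2.13 with a median of 1.28. The same 4 arrays read 0.34, 0.67, 0.88 and 0.85 on 220407_s_at, below the other 60 (1.13 to 2.24). On 209909_s_at they read 1.19, 1.30, 1.48 and 1.56, within the range of the other 60 (1.06 to 2.46). TGFBR2 read -0.31, -0.46, 0.10 and -0.17 there, against -0.34 to 1.5 on the rest.

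Of the other members in 2D, TGFB1 on 203085_s_at was called lower in the middle window (-0.57, SE 0.17, adjusted p = 0.029), with U0126 arrays from 0.87 to 1.58 (median 1.155) against 1.5 to 2.08 (median 1.795) with DMSO-EGF. It was lower in 6 of 6 pairs. The call was lost without 1 of 6 arrays (U0126 at 8 or 12 h of series 2D03 or 4 h of series 2D04, or DMSO-EGF at 4, 8 or 12 h of series 2D03, adjusted p up to 0.16) and after quantile normalization (adjusted p = 0.069). Without the U0126 pair of low 5′ actin signal it stood at -0.48 (adjusted p = 0.28), and series 2D04 alone gave -0.42 (adjusted p = 0.021). BMP4 rose in the late window, with 1.70 and 1.63 in series 2D03 and 1.95 and 1.96 in series 2D04 under U0126, against 0.97 and 1.35 and 1.35 and 1.51 under DMSO-EGF (0.515, SE 0.15, adjusted p = 0.022). No U0126 array was below a DMSO-EGF array. The call was lost when 1 of 4 arrays was left out (24 or 48 h of U0126 in series 2D04, 24 or 48 h of DMSO-EGF in series 2D03, adjusted p up to 0.14) and after quantile normalization (adjusted p = 0.070). TGFBR3 stood at 0.465 in the middle (SE 0.18, adjusted p = 0.13) and 0.35 in the late window (SE 0.22, adjusted p = 0.43). With the block the middle difference passed (adjusted p = 0.014). Series 2D03 alone gave 0.81 in that window (adjusted p = 0.0022) and series 2D04 alone 0.12 (adjusted p = 0.61). TGFBR1 stood at -0.29 in the middle window (adjusted p = 0.12), and with the block it passed (adjusted p = 0.045). With the block and without the U0126 pair of low 5′ actin signal, TGFBR3 was at 0.15 (adjusted p = 0.61) and TGFBR1 at -0.16 (adjusted p = 0.51). TGFB3 and both INHBA probe sets were not called in any 2D window.

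In the middle 2D window 3 member probe sets fell, where 6.46% of all probe sets were called (1.78% higher and 4.68% lower), and 0 of 13 did without the U0126 pair of low 5′ actin signal, where 539 of all 22406 probe sets were called. In the late window 1 rose, where 10.3% were called (5.34% higher and 4.99% lower). In the early window limma called 0 of 13, with 0 at an unadjusted p under 0.05, where 0.00893% of all probe sets were called.

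**Figure D2:**
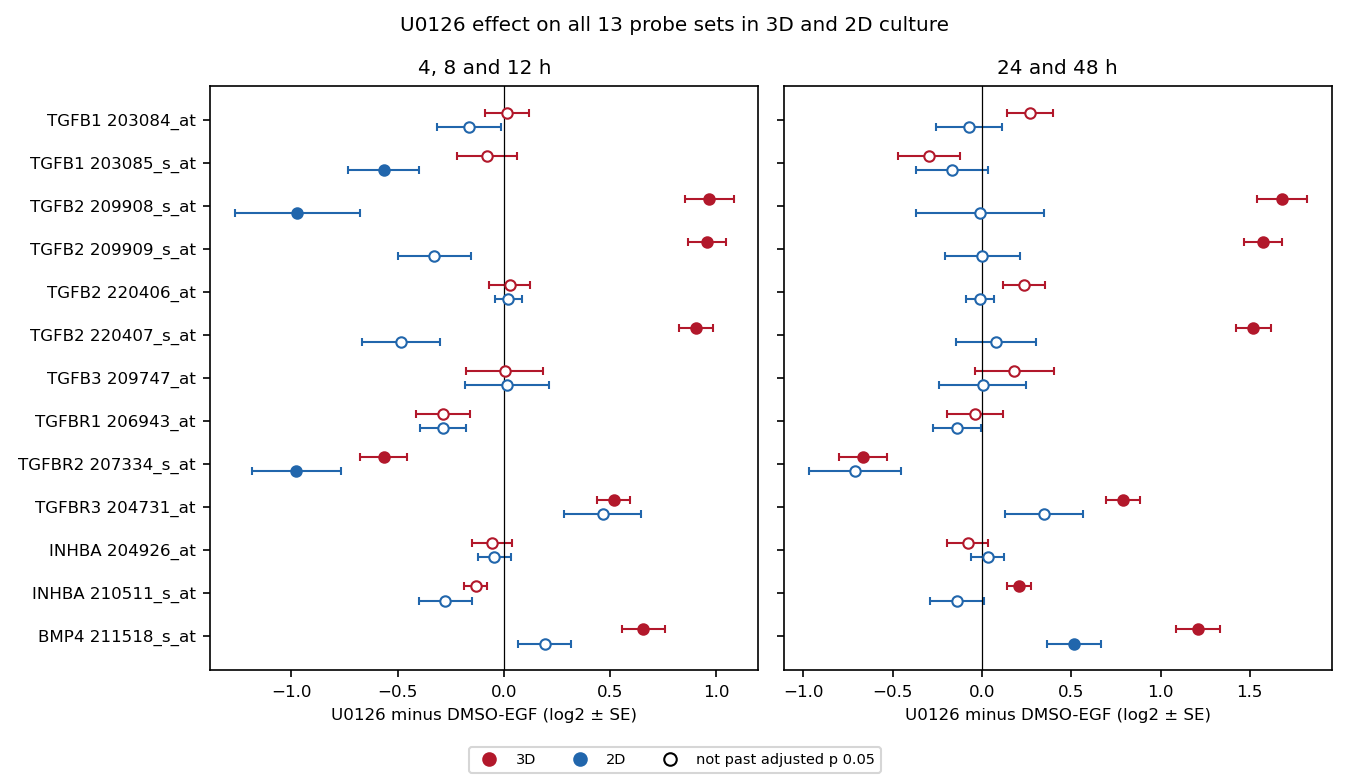
Fitted U0126 minus DMSO-EGF difference (log2, horizontal, bars are SE) of all 13 probe sets in 3D and 2D culture in the middle and late windows, filled where the adjusted p was below 0.05. In the late window 3 TGFB2 probe sets lie at 1.52 to 1.68 in 3D and at -0.01 to 0.08 in 2D. For these probe sets the 2D value averages series that differ in sign at 48 h. TGFBR2 lies below 0 in both cultures and windows.

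Whether the U0126 difference itself depended on culture was tested on all 84 arrays after 0 h. TGFB2 differed between cultures on 3 probe sets. In the late window the difference in 3D exceeded that in 2D by 1.69 on 209908_s_at (SE 0.43, adjusted p = 0.0062), by 1.57 on 209909_s_at (SE 0.23, adjusted p = 1.9e-06) and by 1.44 on 220407_s_at (SE 0.29, adjusted p = 0.00041). In the middle window the same quantity was 1.94, 1.285 and 1.39, and without the U0126 pair of low 5′ actin signal it was 1.23 (adjusted p = 0.00025), 1.11 (adjusted p = 0.00032) and 0.97 (adjusted p = 0.00041). BMP4 exceeded its 2D difference by 0.695 in the late window (SE 0.16, adjusted p = 0.0023) and by 0.465 in the middle one (SE 0.13, adjusted p = 0.049). The middle value was 0.36 without that pair (adjusted p = 0.22), and after quantile normalization the middle value was 0.38 (adjusted p = 0.14) and the late one 0.35 (adjusted p = 0.29).

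The receptors did not pass this test. For TGFBR2 the 3D minus 2D value was 0.05 in the late (SE 0.24, adjusted p = 0.96) and 0.41 in the middle window (SE 0.20, adjusted p = 0.32). TGFBR3 was at 0.44 in the late window (SE 0.22, adjusted p = 0.25), and at 0.665 (adjusted p = 0.0025) against series 2D04 alone. A p that misses the threshold does not show that the cultures acted alike. In both the middle and the late window 4 member probe sets were called, all higher in 3D, where 1.94% (middle, 1.21% higher and 0.727% lower) and 8.48% (late, 3.66% higher and 4.82% lower) of all probe sets were called. In the early window 0 of 13 were called by limma, with 0 at an unadjusted p under 0.05, where 0.0536% were called.

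Untreated cells already differed between the cultures, and there TGFB2 and BMP4 were lower in 3D. TGFB2 on 209909_s_at ran from 1.10 to 1.35 (median 1.23) over the 9 control arrays of series 3D04, against 1.66 to 2.22 (median 1.96) in series 2D03 and 1.48 to 2.41 (median 2.13) in series 2D04. The 3D arrays lay below all 2D arrays. Controls of 3D were lower by 0.80 on this probe set (log2 -0.80, SE 0.08, adjusted p = 1.0e-07), by 0.85 on 220407_s_at (log2 -0.85, adjusted p = 3.3e-07) and by 0.97 on 209908_s_at (log2 -0.97, SE 0.14, adjusted p = 1.2e-05). On 209909_s_at and 220407_s_at the 3D value was below both 2D series at 8 of 8 times, and on 209908_s_at at 7 of 8.

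BMP4 in controls ran from 0.21 to 0.55 (median 0.43) in 3D, against 0.85 to 1.74 (median 1.06) in series 2D03 and 0.59 to 1.61 (median 1.41) in series 2D04. The groups did not overlap, and 3D was below both 2D series at 8 of 8 times (log2 -0.86, SE 0.08, adjusted p = 4.0e-08). With U0126 at 24 and 48 h BMP4 in 3D reached 1.54 and 1.38, within the range of the 2D controls. TGFB2 on 209909_s_at reached 2.41 and 2.58, at and above the top of the 2D controls.

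TGFB3 was also lower in 3D controls (-0.29, SE 0.09, adjusted p = 0.016), while TGFB1 on 203085_s_at (0.45, SE 0.10, adjusted p = 0.0013) and TGFBR1 (0.32, SE 0.08, adjusted p = 0.0050) were higher. For these 3 the ranges of the cultures overlapped. TGFBR2 (0.16, adjusted p = 0.31) and TGFBR3 (0.16, adjusted p = 0.31) were not called, nor were INHBA, 203084_at of TGFB1 and 220406_at of TGFB2. That makes 2 probe sets higher and 5 lower in 3D, where 37.4% of all probe sets were called (18.5% higher and 18.9% lower). With series as a random block, 3 calls remained, 209909_s_at, 220407_s_at and BMP4, and 209908_s_at had an adjusted p of 0.069.

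**Figure D3:**
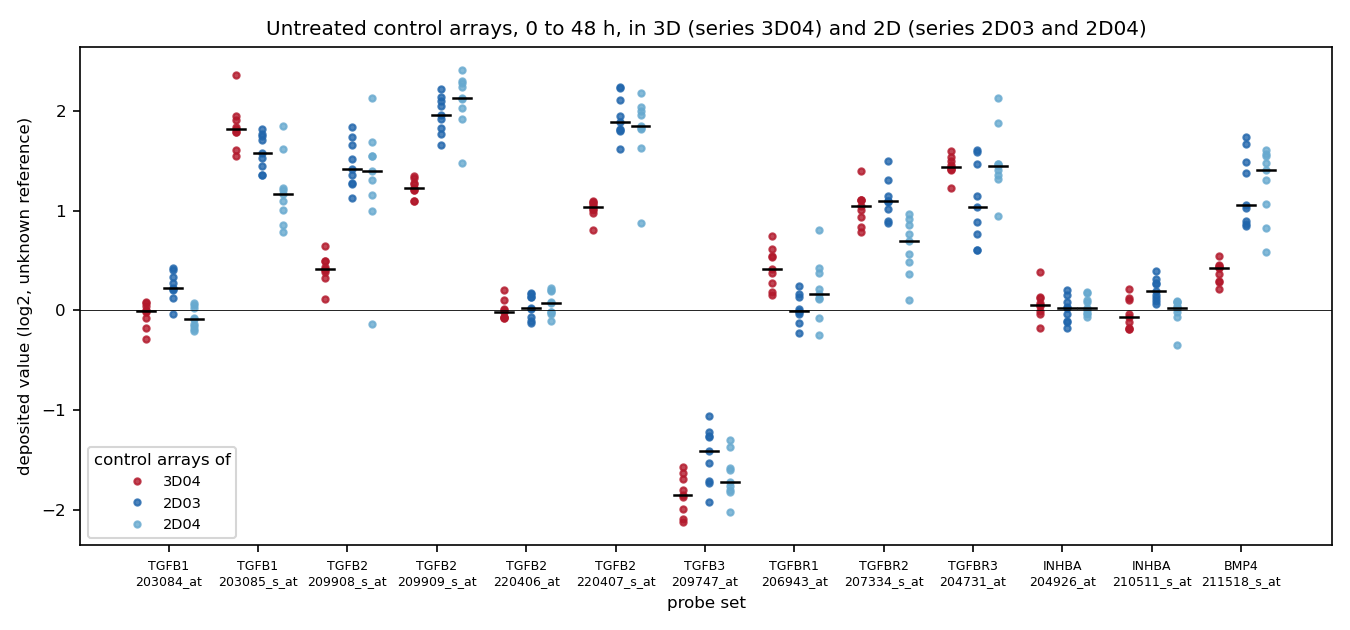
Deposited value (log2 against an unknown reference, vertical) of each untreated control array, 0 to 48 h, for the 13 probe sets (horizontal) in series 3D04, 2D03 and 2D04, with black bars at the medians. BMP4 and TGFB2 209909_s_at of 3D lie below all 2D arrays, and 1 array of series 2D04 reads -0.14 for TGFB2 209908_s_at.

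Some members drifted in culture without treatment. In 2D controls TGFBR3 was higher at 24 and 48 h (1.61 and 1.59 in series 2D03, 1.88 and 2.13 in series 2D04) than at 0 h (0.61 and 0.89, and 0.95 and 1.36), by 0.85 (SE 0.22, adjusted p = 0.020). BMP4 rose by 0.69 (SE 0.15, adjusted p = 0.0052), with 1.38, 1.67, 1.55 and 1.57 at 24 and 48 h against 0.85, 0.90, 0.59 and 1.07 at 0 h. TGFBR1 rose by 0.455 (SE 0.13, adjusted p = 0.047). The 5′ minus 3′ actin difference moved with these results. In the same array order it was 0.21, 0.17, 0.11 and 0.09 at 24 and 48 h, against -0.01, -0.02, -0.36 and -0.12 at 0 h, and its part in the drift was not tested. The lowest BMP4 value of 0 h, 0.59, was from the array at -0.36. For TGFBR3 the lowest values of 0 h, 0.61 and 0.89, were from the arrays at -0.01 and -0.02. Late and 0 h arrays did not overlap for TGFBR3 and BMP4. These were 3 of 13, where 3.62% of all probe sets were called (1.92% higher and 1.7% lower). BMP4 kept its call without any 1 of the 8 arrays. TGFBR3 lost it without 1 of 5 arrays (control repeat 1, 2 or 3 at 0 h, or 24 or 48 h of series 2D04, adjusted p up to 0.15) and TGFBR1 without 1 of 6 (the same ones or 24 h of series 2D03, down to 0.285, adjusted p up to 0.45). With the block, TGFB1 on 203085_s_at also rose (0.485, adjusted p = 0.044) and TGFB3 fell (-0.52, adjusted p = 0.022).

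In 3D controls the late minus 0 h difference was 0.06 for TGFBR3 (SE 0.09) and 0.04 for BMP4 (SE 0.12), and only INHBA on 210511_s_at was called among the 13 (0.26, SE 0.07, adjusted p = 0.010), where 17.9% of all probe sets were called (8.15% higher and 9.72% lower). The INHBA call was lost without 24 h, 48 h or control repeat 2 at 0 h (adjusted p up to 0.082), each of which leaves 1 array on a side that is assumed to vary like the other groups. The 5′ minus 3′ actin difference of these arrays was -0.01 and -0.01 at 24 and 48 h, against 0.09 and 0.07 at 0 h. Whether the drift differed between cultures was not tested.

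**Figure D4:**
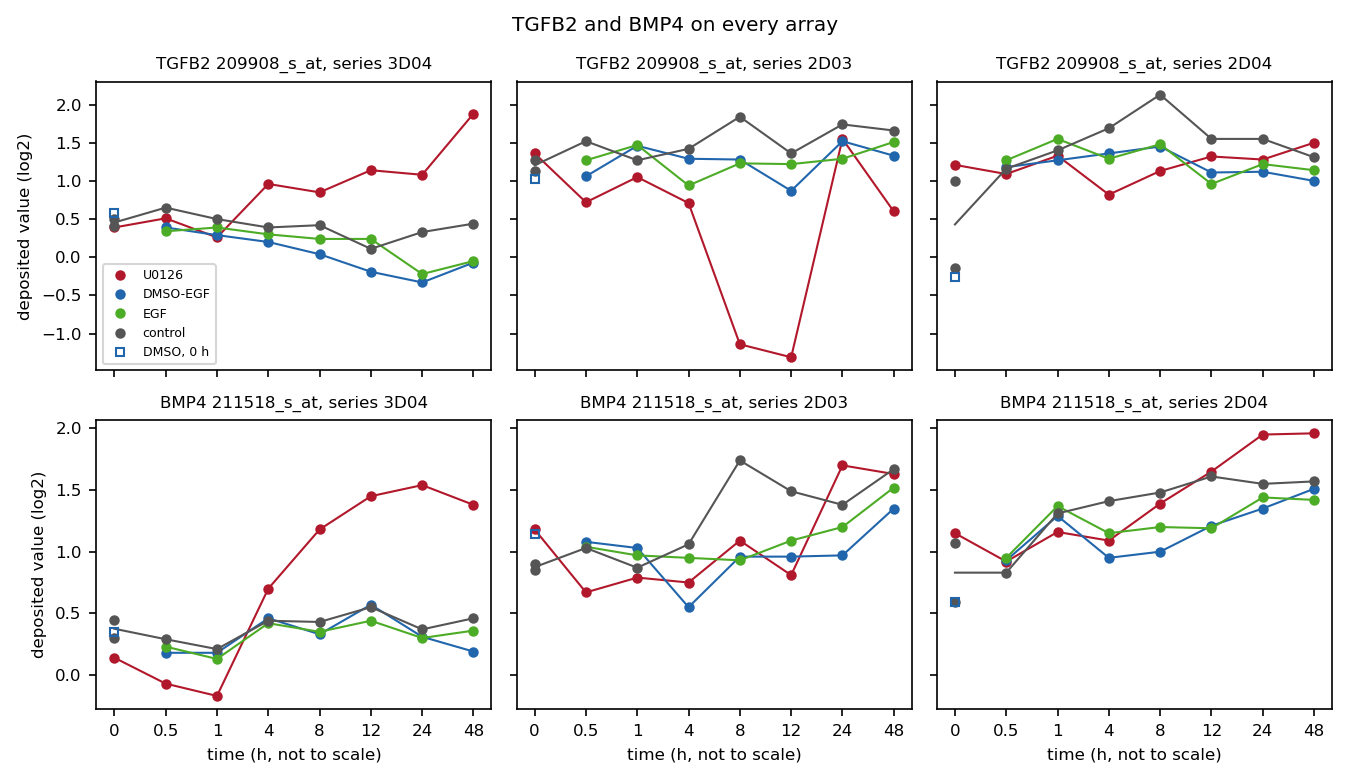
Deposited value (log2 against an unknown reference, vertical) of TGFB2 209908_s_at and BMP4 211518_s_at on every array over time (h, horizontal, not to scale) in series 3D04, 2D03 and 2D04, with lines through the mean of each arm. U0126 lies above the other arms from 4 h on in 3D for both genes and reaches 1.88 for TGFB2. The lowest U0126 points of TGFB2 in series 2D03 are -1.14 and -1.31.

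No member passed the test for EGF, or for the vehicle in 2D. Over EGF minus control and, in 2D, DMSO-EGF minus EGF, limma called 0 of 13 probe sets in every window, where 0% of all probe sets were called. At an unadjusted p under 0.05 there were 0, 1 and 0 members for EGF in 2D in the early, middle and late windows, 0, 0 and 3 in 3D, and 0 in each window for the vehicle. The 1 in 2D was BMP4 in the middle window (-0.38, SE 0.12). The 3 in late 3D were INHBA on 210511_s_at (-0.315, SE 0.07, unadjusted p = 0.00016, adjusted p = 0.91), INHBA on 204926_at (-0.265) and TGFB2 on 209908_s_at (-0.52, SE 0.14). For TGFB2, EGF arrays of 3D had -0.22 and -0.05 at 24 and 48 h, against 0.33 and 0.44 in controls. In 2D from 4 h on, EGF was below control at every time in both series on 209908_s_at (-0.65 to -0.14). So was BMP4 (-0.81 to -0.11), and in 3D at every time (-0.11 to -0.02). TGFB2 on 209909_s_at had both signs. The vehicle was not tested in 3D, where 220407_s_at was lower with DMSO-EGF than with EGF at each time (-0.32 to -0.05). A p that misses the threshold does not show that EGF or the vehicle had no effect. At 0 h, after the pre-treatment, TGFB2 on 209908_s_at in 3D read 0.39 with U0126, 0.58 with DMSO and 0.41 and 0.50 in controls. In series 2D03 it read 1.36 with U0126, 1.02 with DMSO and 1.13 and 1.28 in controls. In series 2D04 it read 1.21 with U0126, -0.26 with DMSO and -0.14 and 1.00 in controls, where -0.26 and -0.14 are from the arrays of low 5′ actin signal named above. With 1 U0126 and 1 DMSO array per series these values were not tested.

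The differences of the members were compared over the 21 combinations of series and time. TGFB2 and BMP4 correlated at r = 0.633, TGFBR2 and TGFBR3 at -0.711 and TGFB1 and TGFBR2 at 0.756. The points share 3 series and, in series 2D03, the pair of arrays with low 5′ actin signal. The genes most like TGFB2 by this measure were MAVS (r = 0.955), ISOC2 (0.934) and GTF2I (0.933). For BMP4 they were UNC119B (0.927), TAF12 (0.900) and RXRA (0.894), and for TGFBR2 DBN1 (0.879), UTP18 (0.873) and STX6 (0.864). For TGFBR3 they were SUOX (0.917), MID1 (0.907) and RHOT1 (0.851), for TGFB1 TADA3 (0.886), CLIC1 (0.860) and STK10 (0.856), and for INHBA PGF (0.820), B3GAT3 (0.819) and ADGRF5 (0.804).

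Among secreted proteins of the pathway, FST fell and THBS1 rose in both cultures. FST, follistatin, which binds and blocks activin, fell in the late window in 3D (-3.42, SE 0.16, adjusted p = 6.0e-12) and in 2D (-1.98, SE 0.20, adjusted p = 5.1e-09). LTBP1, which holds latent TGF-beta in the matrix, fell in 3D by 2.03 (SE 0.18, adjusted p = 2.6e-08) and stood at -0.94 in 2D (adjusted p = 0.064, and called with the block). THBS1, an activator of latent TGF-beta, rose in both cultures (1.00 in 3D and 0.99 in 2D). Of 19 measured extracellular activators and antagonists, 5 rose and 2 fell in late 3D, where 39.1% of all genes were called, and 2 rose and 1 fell in late 2D, where 12% were called. The list's median difference was 0.11 in late 3D and 0.0625 in late 2D, against 0.03 and 0.0075 over all genes. The drop of FST was larger in 3D by 1.44 (adjusted p = 0.00018) and that of LTBP1 by 1.08 (adjusted p = 0.00031).

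Inside the cell, SMAD6, SMAD7 and BAMBI, which restrain the pathway, rose in both cultures. SMAD7, which blocks the type I receptor, was 1.69 higher in late 3D (SE 0.13, adjusted p = 5.7e-09) and 0.92 higher in late 2D (SE 0.22, adjusted p = 0.0032). SMAD6, its counterpart in the BMP branch, rose by 2.00 and 0.78, and BAMBI, a pseudoreceptor without a kinase, by 1.81 and 1.29. SMAD3, the transducer of TGF-beta, fell in late 3D by 0.99 (SE 0.11, adjusted p = 4.4e-07) and stood at -0.39 in late 2D, not called. SMURF2, a ubiquitin ligase that targets receptors and SMADs, fell in both. Of 21 SMADs and intracellular regulators, 5 rose and 5 fell in late 3D, where 39.1% of all genes were called. In late 2D 3 rose and 2 fell, where 12% were called. The list's medians were 0.04 and -0.015, against 0.03 and 0.0075 over all genes. SMAD6, SMAD7 and SMURF2 had a higher U0126 difference in 3D than in 2D in the late window (by 1.22, 0.78 and 0.39).

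Textbook target genes split in direction. The BMP targets ID2 and ID3 rose in late 3D by 4.39 (SE 0.24, adjusted p = 3.9e-11) and 2.47 (SE 0.28, adjusted p = 7.6e-07), and in late 2D by 2.71 and 1.66. CCN2, a matrix signalling protein, fell by 3.02 in 3D and 2.36 in 2D. IL11, a cytokine, fell in 3D (-1.13) and in 2D (-3.42), and BHLHE40, a transcriptional repressor, fell by 2.38 in 3D. Of 18 measured targets, 4 rose and 9 fell in late 3D, where 39.1% of all genes were called. In late 2D 3 rose and 3 fell, where 12% were called. The list's medians were -0.38 and -0.12, against 0.03 and 0.0075 over all genes. These genes also answer to other pathways.

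Other ligands and receptors were mostly not called. Of 9 other receptors and co-receptors, ENG (endoglin, a co-receptor) fell in late 3D (-0.37, adjusted p = 0.0031) and 0 passed in late 2D, or 3 with the block, where 24% of all genes were called. Of 17 other genes named as ligands, BMP1 (a metalloproteinase despite its name) rose by 0.48 and GDF15 and INHBC fell in late 3D, and 0 passed in late 2D. Without the block, 39.1% of all genes were called in late 3D and 12% in late 2D. In the middle 3D window the 5 lists, in the order receptors, ligands, extracellular proteins, SMADs and targets, had 0, 1, 2, 4 and 3 genes higher and 1, 0, 2, 3 and 7 lower, where 15.5% of all genes were called. In the middle 2D window they had 0, 0, 0, 1 and 1 higher and 0, 0, 1, 3 and 4 lower, where 7.15% were called. Without the U0126 pair of low 5′ actin signal 0 were higher, and FST, SMURF2, CCN2, IL11 and JUNB were lower, where 2.79% of all genes were called.

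**Figure D5:**
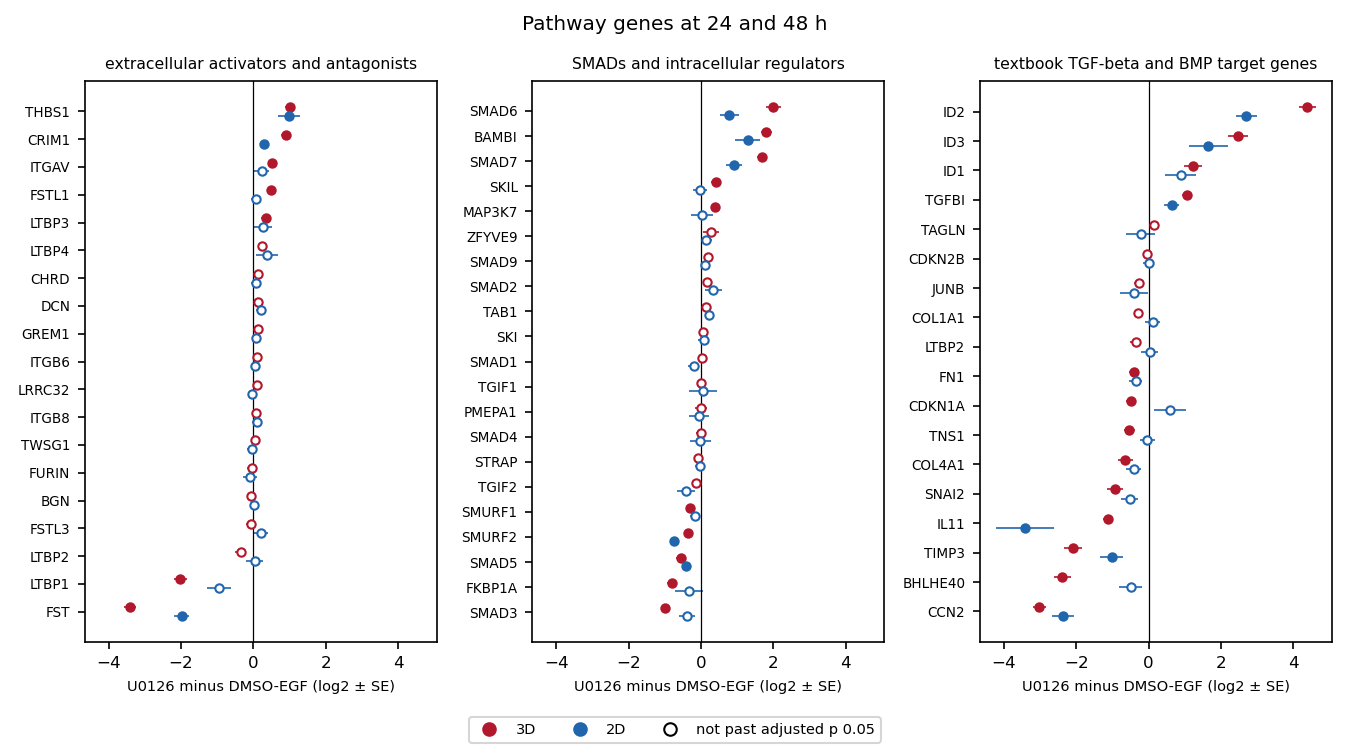
Fitted U0126 minus DMSO-EGF difference in the late window (log2, horizontal, bars are SE) of the measured genes of 3 lists in 3D and 2D culture, ordered by the 3D value and filled where the adjusted p was below 0.05. FST lies at -3.42 in 3D and -1.98 in 2D, SMAD6, BAMBI and SMAD7 lie above 0 in both, and ID2 is highest in both.

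Markers of other cell types gave 0 of 8 fibroblast, 1 of 6 leukocyte and 2 of 8 luminal epithelial genes called in late 3D, namely PTPRC (0.24), FOXA1 (1.76) and KRT8 (0.60), all higher with U0126. In late 2D they gave 0, 0 and 1, namely FOXA1 (0.96). Of all genes, 39.1% were called in late 3D and 12% in late 2D. No summed level is given, since values have no zero, and their part in the member results was not tested.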

How the data were processed

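RNA of MDA-MB-231 cells was measured on 96 Affymetrix arrays, and 1 value per probe set was deposited by the authors on a presumed log2 scale, processed with RMA per the submitters' processing notes. The reference to which each probe set was shifted is not given in the sources used here. Groups came from the labels, where "05h" was read as 0.5 h. Probe sets were named from GEO's platform annotation: 19415 had 1 symbol, 125 several and 3292 were not listed, and 524 array controls were left out. The number of arrays limits the precision.

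Differences were fitted with limma 3.58.1 in R 4.3.3 (lmFit, eBayes with a variance trend) over all 22406 probe sets. The 2D fit had 64 arrays and 33 residual degrees of freedom. The 3D fit had 32 arrays and 13, so times of a window served as repeats there. Adjusted p-values are limma's after Benjamini-Hochberg. The script was tested on simulated data. Repeat numbers pair 2D arrays through the series label: over 465 pairs of groups the deviations of same-numbered arrays correlated at 0.228 to 0.818. Named are all member probe sets, up to 4 genes per list by adjusted p, the 3 genes most like each member, and DUSP6, SPRY4 and EGR1. Genes outside these rules were named after their values were seen. The members and lists were chosen with earlier results of these data known. Alternatives were the replicate block, each series alone, each array or time left out, 1 probe set per gene, no variance trend, quantile normalization, a filter on SD, a random series block and the U0126 pair of low 5′ actin signal left out. Block without that pair, either 2D series alone for controls and the list counts under these settings were chosen after seeing the data.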

Additional observations from a re-analysis of the deposited data

Results flagged for a closer look

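The U0126 difference (U0126 minus DMSO-EGF) was larger in 3D than in 2D by limma's test of the difference itself for TGFB2 and BMP4. For TGFB2 the excess of 3D over 2D in the middle window was 1.94 on 209908_s_at, 1.285 on 209909_s_at and 1.39 on 220407_s_at. In the late window it was 1.69, 1.57 and 1.44 on the same probe sets. For BMP4 it was 0.465 in the middle and 0.695 in the late window. After quantile normalization it was 0.38 (adjusted p = 0.14) and 0.35 (adjusted p = 0.29) there, and without the U0126 pair of low 5′ actin signal 0.36 in the middle window (adjusted p = 0.22), so neither call held under all settings. The 3D arrays are 1 series, so culture and series cannot be told apart. A sample far from the others was looked for only in groups of 4 to 10 arrays. The only such group was the 4 untreated 2D controls at 0 h, where 0 of the 13 probe sets had one. No treated group and no 3D group could be tested in this way.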

How the results depend on the processing

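No member result changed sign while called. The count of members called in the middle 2D window, 3 in the report, was 1 after quantile normalization, 5 with the replicate block, 1 with the block and without the U0126 pair of low 5′ actin signal, 7 in series 2D03 alone, 0 without that pair and 1 to 7 when 1 array was left out. In the late 2D window, 1 in the report, it was 2 with the SD filter, the block, series 2D03 alone or series 2D04 alone, and 0 to 1 when 1 array was left out. For the culture difference it was 2 in place of 4 in each of the middle and late windows with 1 probe set per gene, which leaves TGFB2 with 1. For 3D against 2D controls it was 3 in place of 7 with the random series block (correlation 0.350). For the drift of 2D controls it was 5 with the block and 7 in series 2D04 alone in place of 3, and 1 to 3 when 1 array was left out. For 3D controls it was 2 after quantile normalization in place of 1, and 0 to 2 when 1 time or array was left out. In 3D, 6 were called in the middle window under each time left out and 6 to 7 in the late window, where each such fit leaves 1 array per arm that is assumed to vary like the other groups. Pairing moved the count over all probe sets to 3736 in place of 1447 in the middle 2D window, and to 4670 in place of 2316 in the late one. With the block TGFBR2 passed in the late 2D window (adjusted p = 0.0099), as it did after quantile normalization (adjusted p = 0.049) and with the SD filter (adjusted p = 0.044). Over all settings that keep every array or leave out the pair or a series, 111 counts stayed within 1.5 times the reported one and 15 moved. The 111 include the early, EGF and vehicle comparisons, where 0 members were called and the count stayed at 0. Those say nothing about how stable the calls are. The 3D fit already held time within a window as a term, and the 3D series has only 1 repeat number beyond 0 h, so it had no replicate block. Levels below background are not known from these values.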
